A study of Mus musculus with 18 samples.

Results

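Fibronectin, the product of Fn1, was measured by 4 of the 22999 probes of an Illumina mouse bead array in micro-dissected cartilage of the medial tibial plateau (MTP), the inner side of the upper joint surface of the shin bone. The members were every probe that the platform annotation gives to Fn1 alone, namely ILMN_1260125, ILMN_2588227, ILMN_2595714 and ILMN_2646618, and each was followed on its own. The 18 arrays fell into 6 groups of 3: cartilage of the operated (DMM) knee at 2, 4 or 8 weeks post-surgery, and cartilage of the contralateral knee at each of these weeks. DMM, or destabilisation of the medial meniscus, is an operation that frees the meniscus on the inner side of the knee and is followed by osteoarthritis of the joint. All mice were C57Bl6/J males operated on the right knee at 10 weeks of age, so they were 12, 14 and 18 weeks old at 2, 4 and 8 weeks, and the left knee of the same animals served as the control, so the DMM and contralateral arrays of a week share their mice. Which DMM pool and which contralateral pool came from the same mice is not given in the sources used here. No sham-operated joints were arrayed, so the response to the operation as such cannot be told apart from the response to destabilisation, and the contralateral cartilage came from animals that had also been through surgery. Each array held the cartilage of 8 mice, and the 3 arrays of a group were separate pools.

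Fibronectin is a large adhesive glycoprotein that is secreted as a dimer and assembled by cells into fibrils, on which collagens, thrombospondins and growth factor carriers are deposited. Cells bind it mainly through integrins and, at its heparin-binding domains, through syndecans. The single gene gives several proteins, since the extra domains EDA and EDB and the variable region are included or skipped by alternative splicing: hepatocytes secrete the soluble plasma form, which lacks both extra domains, and fibroblasts and chondrocytes make cellular forms. In osteoarthritic cartilage fibronectin is known to accumulate, and fragments of it made by proteinases stimulate matrix breakdown by chondrocytes.

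The 4 probes carried 1 and the same transcript accession in the platform annotation, whereas the RefSeq table for the assembly GRCm38.p6 lists 15 Fn1 transcripts, of which 7 are curated and 8 predicted. Which of these transcripts each probe detects was not analysed here. The values were log2 intensities that the authors had quantile-normalised over all arrays. Array medians lay between 6.55 and 6.56, single values between 4.62 and 14.67, and no array repeated another (0 duplicate pairs). Since probes differ in how well they hybridise, levels were compared only within a probe.

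Fn1 was higher in DMM cartilage by 2 of the 4 probes. Averaged over the 3 weeks, ILMN_2646618 was 1.51-fold higher in DMM cartilage and ILMN_2595714 was 1.40-fold higher, and both passed the test across all probes. The corresponding folds were 1.13 for ILMN_1260125 and 1.10 for ILMN_2588227, neither of which passed it. In single weeks only ILMN_2646618 passed, at 2 weeks, and none of the 4 passed at 8 weeks. ILMN_2646618 was dim, with a mean of 6.91 over the 18 arrays, close to the array medians of 6.55 to 6.56.

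ILMN_2646618 gave 7.39, 7.65 and 7.59 in the 3 DMM arrays at 2 weeks, against 7.10, 6.50 and 6.91 in the contralateral arrays. At 4 weeks it gave 6.76, 7.28 and 7.49 in DMM cartilage and 6.27, 6.68 and 6.11 in contralateral cartilage. At both weeks every DMM array lay above every contralateral array, which held for 13.6% of all probes at 2 weeks and 9.18% at 4 weeks. At 8 weeks it gave 7.04, 6.64 and 7.02 in DMM cartilage and 6.27, 7.17 and 6.48 in contralateral cartilage, and the groups overlapped because 1 contralateral array was the highest of the 6.

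ILMN_2595714 gave 11.89, 12.13 and 11.96 in DMM cartilage at 2 weeks, against 11.79, 10.93 and 11.59 in contralateral cartilage. At 4 weeks the DMM arrays gave 11.71, 12.06 and 11.65 and the contralateral arrays 11.13, 11.45 and 11.38. At 8 weeks the DMM arrays gave 11.72, 12.09 and 11.70 and the contralateral arrays 11.47, 11.42 and 11.39. This was the only Fn1 probe whose DMM arrays lay above the contralateral arrays at all 3 weeks. The share of all probes was 7.29% at 8 weeks alone, and the share at all 3 weeks together was not worked out. The contralateral arrays were widely spread at 2 weeks, where replicate 2 was the lowest of all 18 arrays, and tight at 8 weeks, with SDs of 0.45 and 0.04 (n = 3 each).

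ILMN_1260125 gave 9.52, 9.43 and 9.42 in DMM cartilage at 2 weeks, against 9.61, 8.77 and 9.25 in contralateral cartilage. It gave 9.08, 8.92 and 9.19 in DMM cartilage at 4 weeks, against 8.35, 9.14 and 8.80 in contralateral cartilage. At 2 weeks the DMM values lay inside the range of the contralateral values, and at 4 weeks the ranges overlapped. At 8 weeks the DMM arrays gave 8.98, 8.89 and 9.15 and the contralateral arrays 8.95, 9.06 and 9.05, and the groups overlapped.

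ILMN_2588227 gave 11.40, 11.48 and 11.28 in DMM cartilage at 2 weeks, against 11.54, 11.34 and 11.14 in contralateral cartilage. At 4 weeks it gave 11.31, 11.52 and 11.37 in DMM cartilage and 11.38, 11.41 and 11.17 in contralateral cartilage. The groups overlapped at both weeks. At 8 weeks it gave 11.58, 11.81 and 11.73 in DMM cartilage and 11.73, 11.36 and 11.18 in contralateral cartilage, so that 1 contralateral array reached the DMM values and the other two did not. This probe varied least of the 4, with a range of 0.67 over the 18 arrays, against 1.53 for ILMN_2646618, 1.25 for ILMN_1260125 and 1.19 for ILMN_2595714.

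**Figure D1:**
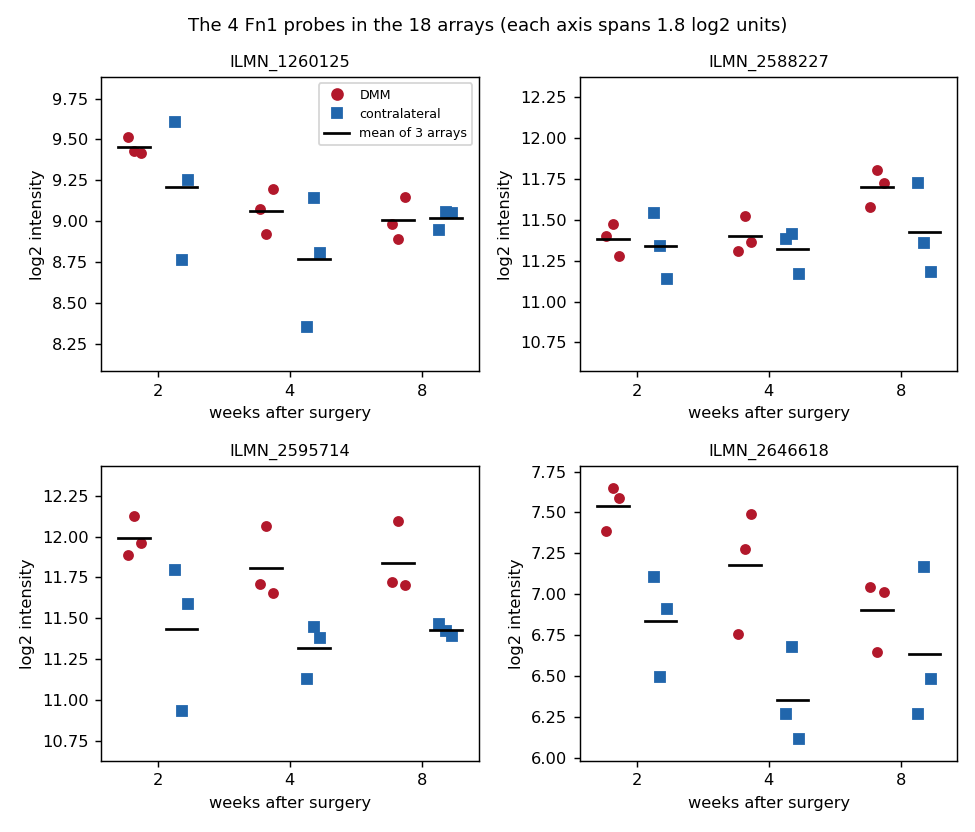
Log2 intensity of each Fn1 probe (vertical axis, 1.8 log2 units in every panel) in the 18 arrays by weeks after surgery, with DMM cartilage as circles, contralateral cartilage as squares and a bar for the mean of 3 arrays. The DMM and contralateral points are separate for ILMN_2595714 at all 3 weeks and for ILMN_2646618 at 2 and 4 weeks.

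Ordered by mean, the 6 groups did not line up the same way in the 4 probes. DMM at 2 weeks was highest for ILMN_2646618 (7.54 ± 0.14, SD, n = 3), ILMN_2595714 (11.99 ± 0.12) and ILMN_1260125 (9.45 ± 0.05), and DMM at 8 weeks was highest for ILMN_2588227 (11.70 ± 0.12). Contralateral cartilage at 4 weeks was lowest for all 4 probes. For ILMN_2595714 and ILMN_2646618 the 3 DMM groups took the top 3 places, and for the other two probes DMM and contralateral groups were interleaved. No pair of neighbours in any of the 4 orders was separate, since their ranges overlapped in every case.

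The DMM effect at each week was tested with limma on the 6 arrays of that week, with Benjamini-Hochberg adjustment over all 22999 probes and a threshold of 0.05. At 2 weeks 1 of the 4 Fn1 probes passed, where 6.63% of all probes did: ILMN_2646618 was higher by 0.70 (SE 0.17), a 1.63-fold difference, with an adjusted p of 0.0321. ILMN_2595714 had an estimate of 0.55 (SE 0.20), with an unadjusted p of 0.0191 and an adjusted p of 0.137. Without contralateral replicate 2 this estimate was 0.30, and that of ILMN_1260125 was 0.02. That array stood apart from contralateral replicates 1 and 3 in its markers too, with a mean of 9.01 for 11 adipocyte markers (7.70 and 6.87 in the other two) and of 8.09 for 18 fibroblast and synovium markers (8.73 and 8.59), and the part of this in the Fn1 values was not tested. The estimates for ILMN_1260125 and ILMN_2588227 were 0.25 (SE 0.19) and 0.05 (SE 0.14), with adjusted p-values of 0.505 and 0.891. The call for ILMN_2646618 was lost when any 1 of the 3 DMM arrays or contralateral replicate 3 was left out (adjusted p between 0.0551 and 0.141), and in 1 fit of all 18 arrays (adjusted p 0.087).

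At 4 weeks none of the 4 passed, where 0.639% of all probes did. The estimates were 0.82 (SE 0.20) for ILMN_2646618, with an unadjusted p of 0.00173 and an adjusted p of 0.0944, and 0.49 (SE 0.16) for ILMN_2595714, with 0.00876 and 0.195. Those 2 probes were the ones under an unadjusted p of 0.05. ILMN_2646618 passed when DMM replicate 1, the lowest DMM array, was left out (1.03, adjusted p 0.0441). At 8 weeks none passed, and 0% of all probes did (112 probes in 1 fit of all 18 arrays, none of them for Fn1). At that week 1993 probes had an unadjusted p under 0.05, and 1 of them was ILMN_2595714 (0.41, SE 0.16, unadjusted p 0.0337, adjusted p 0.540). The limma estimates for the other 3 at 8 weeks were 0.28 for ILMN_2588227, 0.26 for ILMN_2646618 and -0.01 for ILMN_1260125, with adjusted p-values between 0.708 and 0.991.

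With all 18 arrays in 1 limma fit, the mean DMM effect over the 3 weeks passed for 2 of the 4 Fn1 probes, where 9.95% of all probes passed. It was 0.60 (SE 0.13, adjusted p 0.00751) for ILMN_2646618 and 0.48 (SE 0.11, adjusted p 0.00699) for ILMN_2595714. It was 0.18 (SE 0.11, adjusted p 0.370) for ILMN_1260125 and 0.13 (SE 0.09, adjusted p 0.385) for ILMN_2588227, with 95% intervals of -0.06 to 0.41 and -0.05 to 0.32. An exact permutation test of each probe alone, two-sided over the 8000 relabelings of DMM and contralateral arrays within weeks, gave p = 0.00025 for ILMN_2595714, which is the smallest it can give, 0.003 for ILMN_2646618, 0.159 for ILMN_1260125 and 0.112 for ILMN_2588227. Both calls of the 18-array fit held under every alternative tried, with adjusted p-values of at most 0.0209 when single arrays were left out.

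**Figure D2:**
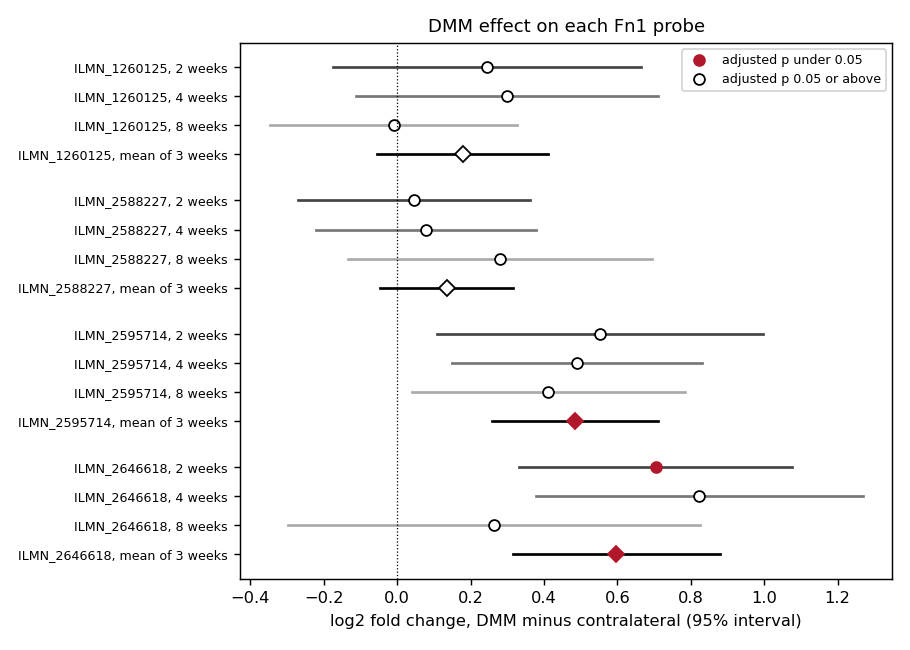
Log2 fold change of DMM over contralateral cartilage (horizontal axis) for each Fn1 probe at 2, 4 and 8 weeks (circles) and averaged over the 3 weeks (diamonds), with 95% intervals from limma and filled symbols where the adjusted p was under 0.05. The filled symbols are ILMN_2646618 at 2 weeks and the 3-week means of ILMN_2595714 and ILMN_2646618.

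Whether the probes differed in their response was tested on the difference between 2 probes within each array, over the 6 pairs, by the same exact permutation test with Benjamini-Hochberg adjustment over the pairs. The probes fell into a responding pair and a pair with smaller estimates: all 4 differences between the pairs passed, and neither difference within a pair did. The DMM effect of ILMN_2595714 exceeded that of ILMN_2588227 by 0.35 (adjusted p 0.0205) and that of ILMN_1260125 by 0.31 (adjusted p 0.0205). The effect of ILMN_2646618 exceeded that of ILMN_1260125 by 0.42 (adjusted p 0.0205) and that of ILMN_2588227 by 0.46 (adjusted p 0.0401). ILMN_2646618 exceeded ILMN_2595714 by 0.11 (adjusted p 0.586), and ILMN_1260125 exceeded ILMN_2588227 by 0.04 (adjusted p 0.767), which does not show that these respond alike. How often probes of other genes differ in this way on the array was not worked out. Whether the differences lie in the transcripts or in how well the probes hybridise was not tested.

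Week by week the size of these differences was not even. At 2, 4 and 8 weeks ILMN_2595714 minus ILMN_2588227 was 0.51, 0.41 and 0.13. ILMN_2646618 minus ILMN_2588227 was 0.66, 0.75 and -0.02 at the same weeks, so that difference was carried by the 2 earlier weeks. ILMN_2646618 minus ILMN_1260125 was 0.46, 0.53 and 0.27, and ILMN_2595714 minus ILMN_1260125 was 0.31, 0.19 and 0.42, with the same sign at all 3 weeks. A single week, with 3 arrays against 3, cannot go below p = 0.1 in this exact permutation test. The difference between ILMN_2646618 and ILMN_2588227 was the least stable, since its adjusted p lay between 0.0518 and 0.131 when each of 11 of the 18 arrays was left out in turn, and that between ILMN_2595714 and ILMN_1260125 was 0.24 (adjusted p 0.0518) without replicate 2 of DMM at 4 weeks.

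**Figure D3:**
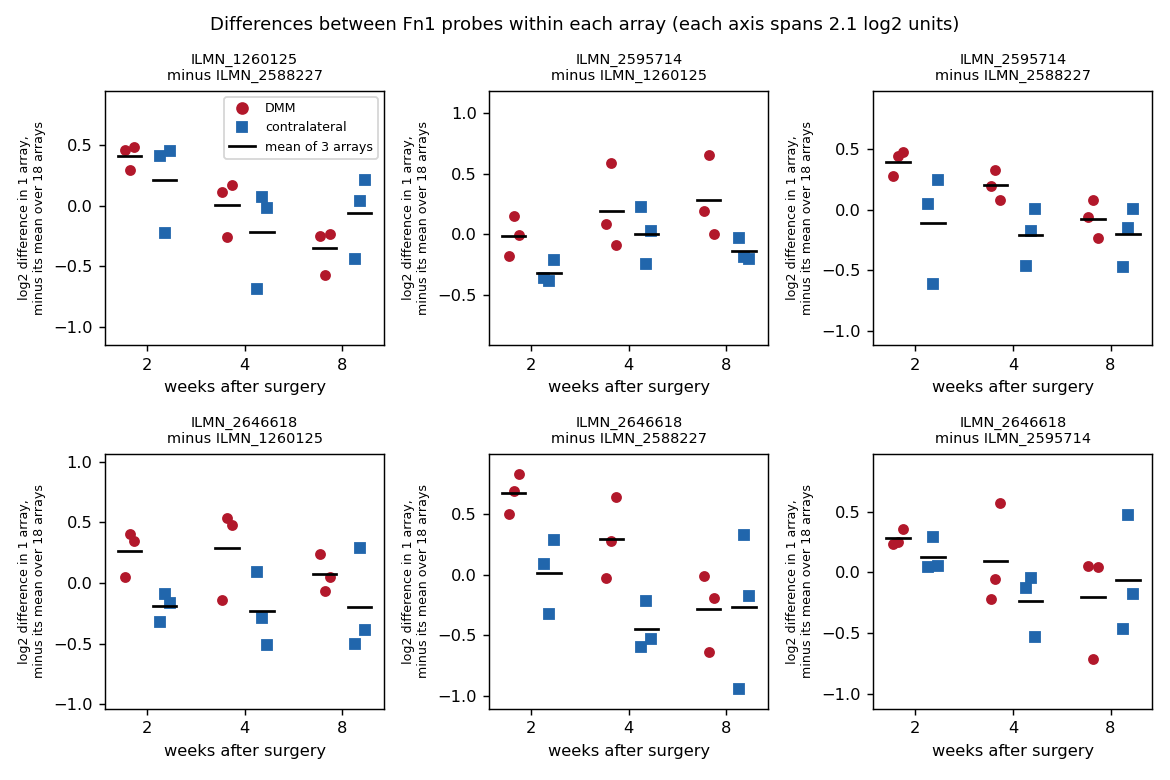
Log2 difference between 2 Fn1 probes in each array, minus its mean over the 18 arrays (vertical axis, 2.1 log2 units in every panel), by weeks after surgery, with DMM as circles, contralateral as squares and bars for means of 3 arrays. The DMM means lie above the contralateral means at all 3 weeks in the panels that set ILMN_2595714 or ILMN_2646618 against ILMN_1260125 and in the panel of ILMN_2595714 against ILMN_2588227.

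Over the 18 arrays the probes did not all follow each other. The permutations shuffled all 18 arrays without regard to group, so these p-values also take in differences between the groups. The correlations of deviations from the group means were not tested. ILMN_2646618 followed ILMN_1260125 (Pearson's r 0.72, permutation p adjusted over 6 relations 0.00426, Spearman's rho 0.72, adjusted p 0.00564) and ILMN_2595714 (r 0.69, adjusted p 0.00543, rho 0.69, adjusted p 0.00564). Without the 2 arrays farthest from the median these were 0.64 and 0.61, and as deviations from the group means they were 0.52 and 0.28. The relation of ILMN_2595714 with ILMN_1260125 (r 0.59, adjusted p 0.0189, rho 0.52, adjusted p 0.0594) was 0.35 without contralateral replicate 2 at 2 weeks and contralateral replicate 1 at 4 weeks, so it rested in part on those arrays. ILMN_2588227 followed none of the others past the threshold, with r of 0.38 to ILMN_2595714, 0.06 to ILMN_2646618 and -0.02 to ILMN_1260125 (adjusted p between 0.175 and 0.940).

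The change of the DMM effect between weeks was tested as an interaction in the 18-array limma fit. None of the 4 probes passed between any 2 weeks, and none had an unadjusted p under 0.05. Of all probes 0% passed, and 1250, 2419 and 1742 had an unadjusted p under 0.05 for 4 minus 2, 8 minus 2 and 8 minus 4 weeks. The largest estimate was that of ILMN_2646618 for 8 minus 4 weeks, at -0.56 (95% interval -1.25 to 0.13, adjusted p 0.732). For ILMN_2595714 the estimate was -0.06 for 4 minus 2 weeks and -0.14 for 8 minus 2 weeks (adjusted p 0.988 and 0.881).

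Within DMM cartilage, weeks were compared in pairs of groups with limma, and none of the 4 probes passed in any pair. The share of all probes that passed was 2.54% for 4 against 2 weeks, 0.639% for 8 against 2 weeks and 0.0739% for 8 against 4 weeks. ILMN_2646618 averaged 7.54 ± 0.14, 7.18 ± 0.38 and 6.90 ± 0.22 at 2, 4 and 8 weeks (SD, n = 3 each), and the estimate for 8 against 2 weeks was -0.64 (SE 0.15, unadjusted p 0.00219, adjusted p 0.119). ILMN_1260125 was 9.45 ± 0.05, 9.06 ± 0.14 and 9.01 ± 0.13, with estimates of -0.39 (adjusted p 0.139) at 4 weeks and -0.45 (adjusted p 0.182) at 8 weeks against 2 weeks. ILMN_2588227 had the opposite sign, at 11.39 ± 0.10, 11.40 ± 0.11 and 11.70 ± 0.12, with 0.32 (adjusted p 0.332) for 8 against 2 weeks and 0.30 (adjusted p 0.479) for 8 against 4 weeks.

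In those DMM comparisons the arrays of the 2 weeks did not overlap for 1 Fn1 probe at 4 against 2 weeks (ILMN_1260125), for 3 at 8 against 2 weeks (all but ILMN_2595714) and for 1 at 8 against 4 weeks (ILMN_2588227). Over all probes, 20.3%, 20% and 17.1% did not overlap in these comparisons. ILMN_2595714 stayed between 11.81 and 11.99 in the 3 DMM means. Within contralateral cartilage none of the 4 probes passed either, where 0.148% of all probes passed for 4 against 2 weeks and 0% for 8 against 2 and 8 against 4 weeks (1660 and 1689 probes with an unadjusted p under 0.05). The largest contralateral estimate was that of ILMN_2646618 for 4 against 2 weeks, at -0.48 (unadjusted p 0.0335, adjusted p 0.633), the only contralateral one under an unadjusted p of 0.05.

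The genes through which fibronectin acts were followed in 6 lists, with the brightest probe of each gene standing for it, among 11499 genes. At 2 weeks 4.07% of genes passed as higher in DMM cartilage and 3.16% as lower, and the median over all genes was 0.01. At 4 weeks those shares were 0.452% and 0.348%. At 8 weeks no gene passed.

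Of 16 measured fibronectin receptors, 2 rose and 1 fell at 2 weeks, with a median of 0.16. All 3 were syndecans, the transmembrane heparan sulphate proteoglycans that bind the heparin-binding domains of fibronectin. Sdc1 rose to 7.30 ± 0.14 in DMM cartilage, against 6.06 ± 0.02 in contralateral cartilage (log2 fold change 1.24, adjusted p 0.00100), and Sdc2 rose to 10.50 ± 0.17, against 9.71 ± 0.35 (0.79, adjusted p 0.0269). Sdc4, the syndecan of focal adhesions, fell to 9.83 ± 0.10, against 10.57 ± 0.02 (-0.74, adjusted p 0.00726). Of the integrin subunits none passed by its brightest probe, and any other probes of these genes were not examined. Itga5, whose product is the alpha chain of the main fibronectin receptor, had an estimate of -0.28 (adjusted p 0.250). Its beta partner Itgb1 had 0.42 (adjusted p 0.102). At 4 weeks 1 of the 16 rose, Sdc1 with 0.67 (adjusted p 0.0496), a call lost whichever array of that week was left out. At 8 weeks none of the 16 passed, with a median of 0.08 and 3 under an unadjusted p of 0.05.

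Of 15 measured matrix partners of fibronectin, proteins that bind it or are laid down on it, 9 rose and 1 fell at 2 weeks, with a median of 0.71. Postn, or periostin, rose by 1.97 (SE 0.35, adjusted p 0.00947), with 9.26 ± 0.16 in DMM and 7.29 ± 0.94 in contralateral cartilage. Tnc, or tenascin C, rose by 1.60 (SE 0.30, adjusted p 0.0113), and Col3a1, a fibrillar collagen of connective tissue, by 1.46 (SE 0.25, adjusted p 0.00720). Thbs1, or thrombospondin 1, an activator of latent TGF-beta, fell by 0.60 (SE 0.15, adjusted p 0.0382). At 4 weeks 2 of the 15 rose, Postn by 1.72 (adjusted p 0.0292) and Tnc by 1.11 (adjusted p 0.0260), and the median was 0.42. At 8 weeks none of the 15 passed, with a median of 0.33 and 5 under an unadjusted p of 0.05.

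Of 12 measured proteinases that cut fibronectin, 6 rose and none fell at 2 weeks, with a median of 0.59. Mmp3, or stromelysin 1, rose by 2.04 (SE 0.18, adjusted p 0.000440), with 9.62 ± 0.19 in DMM and 7.57 ± 0.36 in contralateral cartilage. Mmp2, or gelatinase A, rose by 2.01 (SE 0.32, adjusted p 0.00578), and Mmp14, the membrane-bound activator of Mmp2, by 1.65 (SE 0.29, adjusted p 0.00921). At 4 weeks Mmp3 and Mmp2 rose, by 1.96 (adjusted p 0.00420) and 1.63 (adjusted p 0.00524), with a median over the 12 of 0.48. At 8 weeks none passed, with a median of 0.21 and 3 under an unadjusted p of 0.05. With 1 of the DMM arrays at 2 weeks left out, the counts of genes that rose were 3 to 5 for the matrix partners, 3 for the proteinases and 1 or 2 for the receptors, and without contralateral replicate 3 the proteinases numbered 3 and without contralateral replicate 1 the receptors 4. Among the named genes of the 6 lists, Sdc1, Col3a1, Mmp2 and Mmp3 at 2 weeks and Mmp2 and Mmp3 at 4 weeks passed in every alternative that kept their probes, and the other named calls were each lost without at least 1 array.

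**Figure D4:**
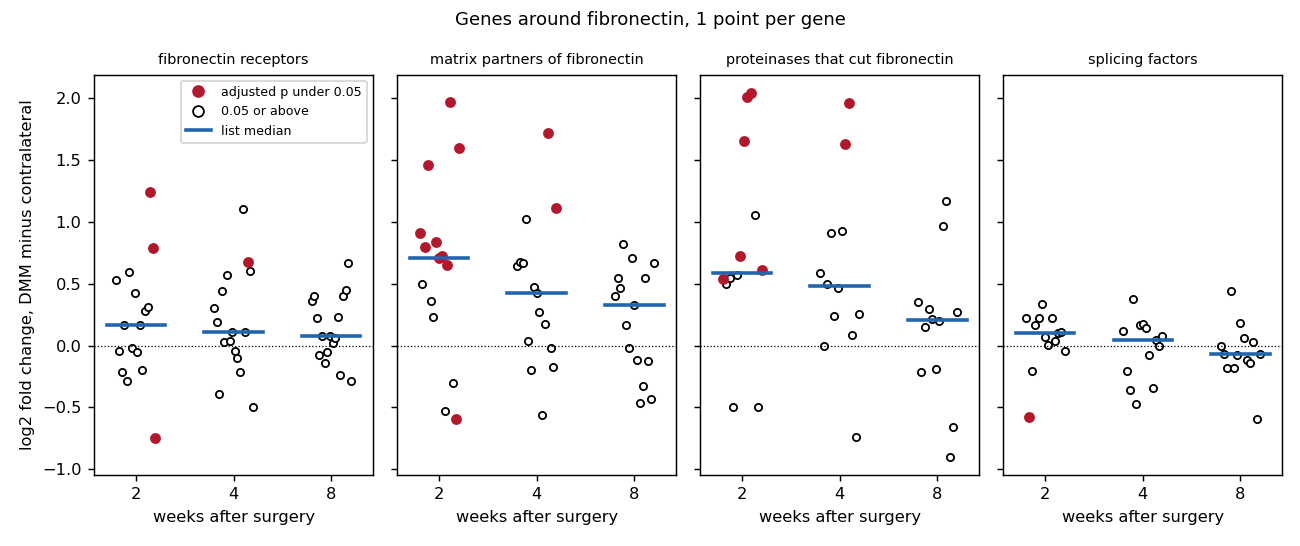
Log2 fold change of DMM over contralateral cartilage (vertical axis) at 2, 4 and 8 weeks for the measured genes of 4 lists, with 1 point per gene, filled where the adjusted p was under 0.05, and a bar for the list median. The medians of the matrix partners are 0.71, 0.42 and 0.33 and those of the splicing factors 0.10, 0.04 and -0.07.

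Of 13 measured splicing factors, among them SR proteins and other regulators of exon inclusion, 1 fell at 2 weeks and none rose, with a median of 0.10. It was Clk1, a kinase that phosphorylates SR proteins (-0.58, SE 0.14, adjusted p 0.0367). None of the 13 passed at 4 or 8 weeks, where 3 and 2 had an unadjusted p under 0.05. Of 17 genes of the adhesion complex that links integrins to actin, 2 rose at 2 weeks: Fblim1, or migfilin, which binds filamin (0.82, adjusted p 0.0186), and Actn1, an actin crosslinker (0.50, adjusted p 0.0483), with a median of 0.31. None of the 17 passed at 4 or 8 weeks, where 3 and 1 had an unadjusted p under 0.05. Of 10 genes of TGF-beta signalling, a known inducer of fibronectin, the ligands Tgfb3 (0.99, adjusted p 0.0135) and Tgfb2 (0.61, adjusted p 0.0190) rose at 2 weeks, the co-receptor Tgfbr3 fell (-0.70, adjusted p 0.0253), and the median was -0.08. None of the 10 passed at 4 or 8 weeks, where 3 and 1 had an unadjusted p under 0.05.

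Other probes of the genes of these lists that were named because they passed gave estimates of the same sign in every case. They did not always pass. At 2 weeks 5 of the 6 other Tnc probes did, and the other Clk1 probe did not (-0.43, adjusted p 0.148). At 4 weeks 3 of the 6 other Tnc probes passed (adjusted p between 0.0577 and 0.603 for those that did not). Neither the other Sdc1 probe nor the other 2 Postn probes passed at 4 weeks. Sizes differed too. Sdc1 at 2 weeks was 1.24 by the named probe and 0.48 by the other. Postn at 4 weeks was 1.72 by the named probe and 0.82 and 0.52 by the others. The other Tnc probes at 2 weeks lay between 0.60 and 1.88, on both sides of the 1.60 of the named probe.

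Markers of the tissue and of cells around it were followed as well, and not all of them separated DMM from contralateral arrays. The mean of 17 chondrocyte markers lay between 9.72 and 10.12 in DMM arrays and between 10.09 and 10.32 in contralateral arrays at 2 weeks, where 4 of them fell and 1 rose, and 1 fell at 4 weeks. It lay between 9.77 and 10.16 in DMM arrays and between 10.02 and 10.14 in contralateral arrays at 4 weeks, and between 9.90 and 10.03 in DMM arrays and between 10.00 and 10.04 in contralateral arrays at 8 weeks. Of 18 fibroblast and synovium markers 12 rose at 2 weeks (5 to 9 with 1 DMM array left out) and 4 at 4 weeks (0 to 7 with 1 array left out), and none fell. At 2 weeks the mean of the 18 lay between 9.32 and 9.50 in DMM arrays and between 8.09 and 8.73 in contralateral arrays. At 4 weeks it lay between 8.78 and 9.22 in DMM arrays and between 8.03 and 8.61 in contralateral arrays, and at 8 weeks between 8.73 and 9.10 in DMM arrays and between 8.40 and 8.54 in contralateral arrays. The DMM and contralateral arrays were thus separate at all 3 weeks, as they were for ILMN_2595714. The mean of the 16 fibronectin receptors was likewise higher in every DMM array than in every contralateral array at all 3 weeks. That of the 4 measured hepatocyte markers was lower in the same way. Some margins were narrow. For the receptors at 2 weeks the lowest DMM mean was 7.524 and the highest contralateral mean 7.512. For the hepatocyte markers at 4 weeks the highest DMM mean was 8.485 and the lowest contralateral mean 8.493. Of the 16 receptors 9 had a positive estimate at 2 weeks, and 11 at 4 and at 8 weeks. How often other sets of genes separate in this way was not worked out. The list of fibroblast and synovium markers shares 5 genes with the matrix partners and none with the other 5 lists.

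Of 17 muscle markers 13 fell at 2 weeks and 13 at 4 weeks (8 and 0 in 1 fit of all 18 arrays). At 2 weeks 3 of 14 macrophage markers and 1 of 9 endothelial markers rose, 3 of 11 adipocyte markers fell, 1 of 11 bone markers rose and 1 fell, and none of 12 neutrophil or 5 erythroid markers passed (6 and 3 had an unadjusted p under 0.05). At 4 weeks 2 of 12 neutrophil markers rose. The name of the hepatocyte list does not mean that liver cells were in the cartilage. Of the hepatocyte markers 4 of 14 were measured. Among them Serpina1a (-1.98, adjusted p 0.000950) and Serpina1b (-2.17, adjusted p 0.000440), which are near-identical copies, fell at 2 weeks. At 4 weeks Serpina1b fell (-0.84, adjusted p 0.0474), a call lost without any 1 of 5 of the 6 arrays. In such pooled tissue more cells of a type and more RNA per cell cannot be told apart.

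The Fn1 probes tracked the fibroblast and synovium markers to different degrees. Here too the permutations ignored the groups, so the p-values also take in differences between them, and the values within groups were not tested. Over the 18 arrays the marker mean and ILMN_2595714 had r = 0.91 (permutation p 1e-05, the smallest that can be given, adjusted over 8 relations 8e-05, rho 0.89), 0.87 without the 2 farthest arrays and 0.79 as deviations from the group means. For ILMN_2646618 r was 0.77 (adjusted p 0.0008, rho 0.73, adjusted p 0.0026), 0.69 without the 2 farthest arrays and 0.32 within groups. For ILMN_1260125 it was 0.62 (adjusted p 0.016, rho 0.52, adjusted p 0.0774), 0.42 without those 2 arrays, on which it partly rested, and 0.56 within groups, and for ILMN_2588227 it was 0.20 (adjusted p 0.483) and 0.08 within groups. Within the 9 DMM arrays r was 0.65 for ILMN_2595714, 0.79 for ILMN_2646618, 0.58 for ILMN_1260125 and -0.36 for ILMN_2588227. Within the 9 contralateral arrays it was 0.90, 0.31, 0.80 and -0.0005 for the same probes. With the chondrocyte markers r was -0.50 for ILMN_2595714 and for ILMN_2646618 (adjusted p 0.053 each), and -0.17 and -0.36 within groups. For these probes it was -0.50 and -0.54 within the 9 DMM arrays, against 0.26 and 0.22 within the 9 contralateral arrays, so the sign was not the same in both. The part of a change in cell content in the Fn1 results was not tested.

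The genes whose pattern over the 18 arrays was most like that of ILMN_2595714, the Fn1 probe with the highest mean, were ranked by Pearson's r among 11498 genes. The 10 nearest were Pamr1 (0.95), Heg1 (0.94), Has1 (0.93), Prune2 (0.92), Sirpa (0.92), Scpep1 (0.91), Aspn (0.91), Lum (0.91), Antxr1 (0.90) and Col3a1 (0.90). Within groups their r lay between 0.77 and 0.92. Lum and Aspn encode small leucine-rich proteoglycans of the matrix, Has1 a hyaluronan synthase, Antxr1 a collagen-binding receptor and Col3a1 a fibrillar collagen. Has1, Lum and Col3a1 also belong to the list of fibroblast and synovium markers. Of the 10, Pamr1, Has1, Aspn, Lum, Antxr1 and Col3a1 passed at 2 weeks, with log2 fold changes between 0.85 and 1.86, and Lum and Antxr1 at 4 weeks.

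None of these 10 genes was among the 10 nearest to any of the other 3 Fn1 probes. The nearest gene was P3h1, a collagen prolyl hydroxylase, for ILMN_1260125 (r 0.85), Gdpd5 for ILMN_2588227 (0.78) and Cthrc1, a secreted protein of remodelling matrix, for ILMN_2646618 (0.88). Set among those genes, ILMN_2595714 would stand at rank 195 for ILMN_1260125, 765 for ILMN_2588227 and 208 for ILMN_2646618. These ranks are among 11498 genes, and how often probes of 1 gene share their nearest genes on this array was not worked out. These likenesses describe the 18 arrays, which differ in surgery, week and cell content together.

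**Figure D5:**
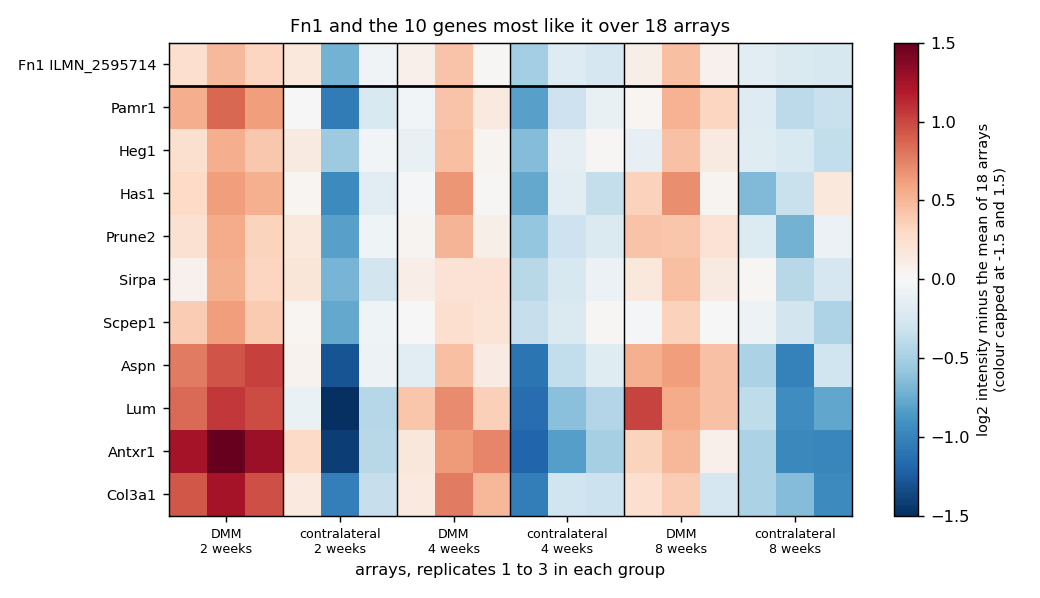
Log2 intensity minus its mean over the 18 arrays (colour, capped at -1.5 and 1.5) for Fn1 probe ILMN_2595714 and the 10 genes most like it (rows) in each array (columns, replicates 1 to 3 of each group). In the Fn1 row the lowest values are in contralateral replicate 2 at 2 weeks and contralateral replicate 1 at 4 weeks, and the highest are in replicate 2 of DMM at 2, 8 and 4 weeks.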

How the data were processed

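Cartilage RNA from the pools was amplified with the Ovation Pico system and hybridised to Illumina WG-6 v2.0 bead arrays. The deposited log2 intensities had been selected and quantile-normalised by the authors with lumi 2.8.0 in R 2.15.0; the rule of selection is not given in the sources used here. A further table was not used, because its 36 per-sample columns match no label. Probes were named from the platform annotation: 18998 had 1 gene, 6 several, and 3995 were not listed. The values were fitted with limma 3.58.1 (lmFit, eBayes, two-sided) in R 4.3.3, on the 6 arrays of a pair of groups or on all 18 arrays. P-values were adjusted over all 22999 probes (Benjamini-Hochberg, threshold 0.05). Exact permutation tests and correlations used Python 3.11.15 and scipy 1.17.1. The fits were tested on simulated data. The precision rests on 3 arrays a group.

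Named genes were all Fn1 probes, at most 3 risen and 3 fallen members of each list at a week, and the 10 genes most like the Fn1 probe of the highest mean; others named in the report were chosen after their values were seen. The Fn1 probes and the gene lists were chosen with earlier results of these data known. Alternatives were requantile normalisation, cyclic loess, array weights, robust variances with a trend on intensity, a replicate block, a joint fit of the 18 arrays, a filter on dim probes, the share of linear intensity and leaving out each array.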

Additional observations from a re-analysis of the deposited data

How the results depend on the processing

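Of the DMM effects on the Fn1 probes, that of ILMN_2646618 at 2 weeks lost its call in 1 fit of all 18 arrays (0.70, adjusted p 0.087) and ranged from 0.53 to 0.84 with single arrays left out, with the call lost for 4 of 6 arrays. At 4 weeks the same probe ranged from 0.67 to 1.03, and passed without DMM replicate 1. Both calls of the mean effect over 3 weeks were kept under every alternative, as were the missed calls of the other two probes. Of the differences between probes, ILMN_2646618 minus ILMN_2588227 ranged from 0.35 to 0.56 with single arrays left out, and was lost for 11 of 18 arrays; ILMN_2595714 minus ILMN_1260125 ranged from 0.24 to 0.35. In the fit of all 18 arrays the SE of ILMN_2646618 at 2 weeks was 0.233, against 0.169, with the estimate the same. That fit uses 1 spread for all weeks, and the residual SD of this probe was 0.24, 0.34 and 0.37 at 2, 4 and 8 weeks. With arrays left out fewer were fitted. The cause of the lost calls was not tested further. No direction of a call was reversed. With the replicate number as a block, ILMN_2646618 at 2 weeks had an adjusted p of 0.0481 and no Fn1 call changed. Under the block the call of Sdc1 at 4 weeks was lost (adjusted p 0.0544), as were those of Actn1 (0.0879), Lyz2 (0.0731) and Has1 (0.0531) at 2 weeks, and the proteinases that rose at 2 weeks numbered 4 in place of 6. At 4 weeks Col3a1, Mmp14 and Thy1 passed under it (adjusted p 0.0141, 0.0322 and 0.0238), and the fibroblast and synovium markers that rose numbered 7 in place of 4. DMM and contralateral arrays of a week share their mice, but no source ties equal replicate numbers to the same mice, so the numbers were not taken as pairs. Deviations of DMM and contralateral arrays of the same number correlated between -0.10 and 0.13. The own number was the nearest for 1, 3 and 0 of 3 arrays at 2, 4 and 8 weeks. These values do not settle whether equal numbers share mice. Over all probes, the 1525 calls at 2 weeks became 724, 390 and 424 without DMM replicates 1, 2 and 3. Over the alternatives the receptors that rose at 2 weeks numbered 1 to 4, the matrix partners 3 to 10 and the proteinases 3 to 6. Over all probes the 147 calls at 4 weeks ranged from 36 in 1 fit of all 18 arrays to 341 with the replicate block, and the 0 at 8 weeks became 112 in 1 fit of all 18 arrays. Over weeks within DMM cartilage the 585, 147 and 17 calls for 4 against 2, 8 against 2 and 8 against 4 weeks ranged from 203 to 711, 1 to 246 and 0 to 95, and within contralateral cartilage the 34 for 4 against 2 weeks from 0 to 70 and the 0 for 8 against 4 weeks from 0 to 21; none was for Fn1. The interactions of week and surgery, 0 calls each, gave at most 3. Of the other named genes, 85 values at 2 weeks and 55 at 4 weeks lost their call over all genes and alternatives, and 10, 12 and 1 gained one at 2, 4 and 8 weeks. With 3 arrays a group, changes in Fn1 of the size of its replicate spread could not be told from none.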
